A study of Mus musculus with 8 samples.

Results

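The genes described here are 8 genes of Schwann cells and of the myelin they make: Mbp, Pmp22, Cnp, Prx, Sox10, S100b, Ngfr and Ncmap. They were chosen by gene symbol, and all 8 were found among the 33549 entries with a count in the deposited tables. The study measured the adult mouse oral mucosa by tomo-seq, which slices a tissue block in order and counts barcoded transcripts slice by slice, so that depth can be followed. All mice were wild-type C57BL/6J and untreated as far as the labels say. The 8 samples were 2 replicates each of 4 sites, namely the cheek lining (buccal mucosa), hard palate, and the upper and lower face of the tongue (dorsal and ventral tongue), with 20 sections of 14 µm per sample. The labels give no age in weeks, do not say whether replicates came from separate animals, and do not say from which side the sections were numbered. What the p-values measure is thus the spread among these libraries, and part of it may be technical.

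Schwann cells are the glia of peripheral nerves. They come from the neural crest under the transcription factor Sox10, which they keep for life. Those around large axons switch on Egr2, which together with Sox10 activates the myelin genes, and wrap the axon in compact myelin. Those around small axons ensheath several fibres without myelin and keep markers of the immature state, Ngfr among them. The oral mucosa holds both kinds, since sensory nerves run from the deeper connective tissue and muscle up to the epithelium.

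Within the set, Mbp encodes myelin basic protein, which fuses the cytoplasmic faces of the membrane, and Pmp22 a membrane protein of compact myelin. Prx encodes periaxin, which ties the myelin sheath to the basal lamina through dystroglycan. Cnp encodes an enzyme of the uncompacted cytoplasmic channels and Ncmap a protein of noncompact myelin. S100b encodes a calcium-binding protein of Schwann cells, which adipocytes also make. Ngfr encodes the low-affinity neurotrophin receptor, which basal keratinocytes of several epithelia also carry, and Pmp22 and Sox10 likewise have sources outside nerve, among them fibroblasts for Pmp22 and salivary gland epithelium for Sox10. In a sample of mixed tissue, fewer cells of a type and less RNA per cell cannot be told apart.

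In GRCm38, by the GENCODE annotation, Pmp22 lies at chr11:63128982-63159547 on the plus strand, Cnp at chr11:100574904-100591729 on the plus strand and Ngfr at chr11:95568818-95587735 on the minus strand. Prx lies at chr7:27499324-27520214 on the plus strand and Ncmap at chr4:135369576-135398227 on the minus strand. S100b lies at chr10:76253853-76261159 on the plus strand and Sox10 at chr15:79154908-79165240 on the minus strand. A gene on the opposite strand overlaps 5 of the 8: Dnajc7 for Cnp, Dip2a for S100b, Gm15541 for Prx, and the pseudogenes Rpl21-ps8 for Mbp and Gm12991 for Ncmap. Strand use in the counting is not stated in the labels, so reads of such a pair cannot be told apart with certainty.

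RefSeq promoters of GRCm38.p6, from 250 bases before to 50 after a start site, were matched for 6 of the 8 genes, with 10 start sites between them. They were searched on both strands for GCGTGGG, the letters an EGR factor such as Egr2 binds, and for ACAAAG, the core that SOX factors bind. GCGTGGG was found at 3 of the 10 start sites, of Prx, Cnp and Ncmap, and in 5.038% of the 32851 promoters in the table. ACAAAG was found at 1 of the 10, of Cnp, and in 18.71% of the table. Prx, Cnp and Ncmap are shown because they hold these letters and all rose with section number as described further on, and Ngfr because it did not. The choice used both traits, so a link between the letters and the rise was not tested. Pmp22 and S100b held neither run of letters at their matched start sites and were also higher in sections 11 to 20. Sequences run 5′ to 3′ on the gene's strand, and capitals mark the letters searched for.
Prx, chr7:27499074-27499373, plus strand: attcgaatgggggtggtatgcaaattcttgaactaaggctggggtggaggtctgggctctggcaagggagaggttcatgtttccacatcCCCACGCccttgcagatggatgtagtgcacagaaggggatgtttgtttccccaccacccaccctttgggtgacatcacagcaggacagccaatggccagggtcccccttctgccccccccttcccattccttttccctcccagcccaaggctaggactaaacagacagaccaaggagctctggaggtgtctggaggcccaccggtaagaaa
Cnp, chr11:100574689-100574988, plus strand: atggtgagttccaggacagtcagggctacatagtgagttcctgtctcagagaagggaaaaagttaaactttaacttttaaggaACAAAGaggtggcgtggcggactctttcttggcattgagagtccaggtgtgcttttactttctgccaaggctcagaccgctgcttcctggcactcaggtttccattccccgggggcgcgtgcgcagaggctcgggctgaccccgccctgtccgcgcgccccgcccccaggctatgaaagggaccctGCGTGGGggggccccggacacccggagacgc
Ncmap, chr4:135385623-135385922, minus strand: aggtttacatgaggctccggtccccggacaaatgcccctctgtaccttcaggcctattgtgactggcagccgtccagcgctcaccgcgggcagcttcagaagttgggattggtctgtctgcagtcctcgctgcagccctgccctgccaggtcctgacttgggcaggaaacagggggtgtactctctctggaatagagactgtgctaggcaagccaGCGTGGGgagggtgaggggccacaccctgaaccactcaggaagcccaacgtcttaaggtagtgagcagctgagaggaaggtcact
Ngfr, chr11:95587649-95587948, minus strand: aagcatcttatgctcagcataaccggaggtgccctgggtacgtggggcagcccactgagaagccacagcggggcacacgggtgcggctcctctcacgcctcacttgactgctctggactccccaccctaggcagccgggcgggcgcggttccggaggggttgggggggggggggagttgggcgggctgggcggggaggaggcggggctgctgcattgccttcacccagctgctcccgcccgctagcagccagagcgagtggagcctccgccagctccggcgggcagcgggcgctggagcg
In Prx the match is on the reverse strand and begins 161 bases before the start site. In Cnp the EGR-type letters begin at base 20 after the start and the SOX-type letters 167 bases before it, and in Ncmap, at its internal start site, the EGR-type letters begin 35 bases before the start. A match is only a run of letters and no measurement of binding.

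A unique molecular identifier (UMI) marks each captured molecule, and levels are counts per 1000000 UMIs of the library (CPM). The samples held 7830471 to 26376536 UMIs each, and 6 of the 160 sections held under 100000. The members were measured well within the range of the tag: the highest count of any of them in 1 section was 891, against a highest value of 4240 for any gene. One library stood apart. In buccal mucosa replicate 2 the 16 keratinocyte markers summed to 541 CPM against 25311 to 36575 in the other 7 libraries. Its salivary gland markers summed to 9187 CPM (41.7 to 396 elsewhere), its adipocyte markers to 7155 (161 to 1280 elsewhere) and its skeletal muscle markers to 53670 (242 to 29323 elsewhere). Results between sites that it changes are therefore also given without it. Other markers of Schwann cells were present in every library, with Mag, an adhesion protein between myelin and axon, at 1.18 to 7.92 CPM and the transcription factor gene Egr2 at 2.31 to 11.7 CPM.

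Myelin genes were lowest in the dorsal tongue and highest in 1 buccal library. Mbp stood at 116 and 530 CPM in buccal mucosa replicates 1 and 2, 104 and 198 in the hard palate pair, 107 and 111 in the ventral tongue pair and 79.9 and 79.2 in the dorsal tongue pair. Both dorsal tongue samples were below all 6 others, while the first buccal sample lay between the palatal samples and the second above both. Pmp22 stood at 140 and 713 CPM in buccal mucosa, 141 and 209 in the hard palate pair, 180 and 165 in the ventral tongue pair and 105 and 122 in the dorsal tongue pair. The dorsal tongue again lay below every other sample, and the other 3 sites overlapped. Prx, the periaxin gene, stood at 9.18 and 88.6 CPM in buccal mucosa, 10.4 and 25.9 in the hard palate pair, 10.6 and 12.6 in the ventral tongue pair and 5.56 and 5.95 in the dorsal tongue pair. The same order held, with the second buccal library above all others and the dorsal tongue pair below all others.

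The genes of noncompact myelin had the same lowest site. Cnp stood at 39.8 and 76.0 CPM in buccal mucosa, 38.5 and 55.2 in the hard palate pair, 47.5 and 38.4 in the ventral tongue pair and 18.3 and 21.3 in the dorsal tongue pair. Outside the dorsal tongue the 3 sites overlapped, and Cnp varied least of the 5 myelin genes between the lowest and the highest library, by 4.15 times. Ncmap stood at 5.10 and 48.7 CPM in buccal mucosa, 8.90 and 18.8 in the hard palate pair, 6.98 and 6.72 in the ventral tongue pair and 2.92 and 3.25 in the dorsal tongue pair. Hard palate lay above ventral tongue and ventral tongue above dorsal tongue without overlap. At the lowest level, 62 UMIs of Ncmap in dorsal tongue replicate 1, the exact 95% Poisson interval was 2.24 to 3.74 CPM, which covers counting error only.

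**Figure D1:**
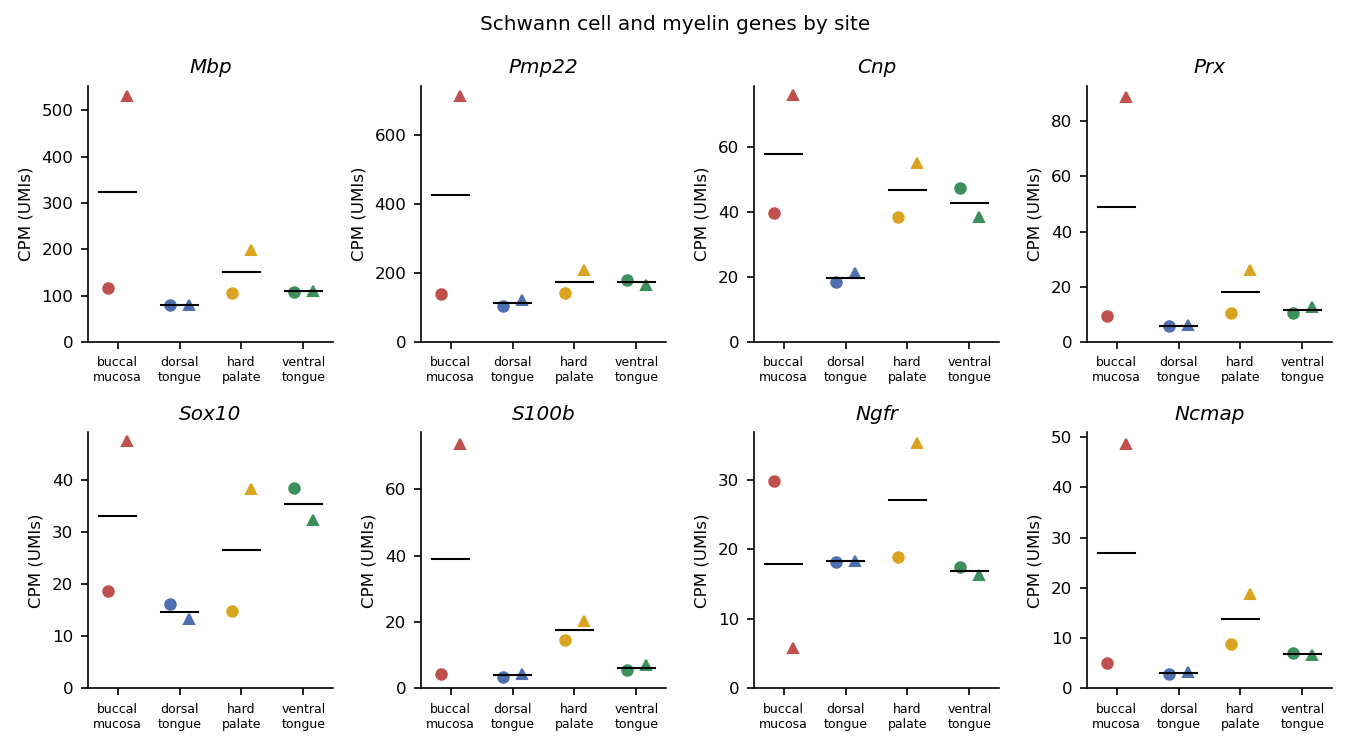
Level of each of the 8 genes in CPM (vertical axis from 0, a scale of its own for each gene) at the 4 sites; circles are replicate 1, triangles replicate 2 and bars the mean of the pair. Buccal mucosa replicate 2 is the highest library for 7 genes and the lowest for Ngfr, at 5.87 CPM, and the dorsal tongue pair is low for all but Ngfr.

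The lineage and glial markers were less uniform. Sox10 stood at 18.7 and 47.4 CPM in buccal mucosa, 14.8 and 38.3 in the hard palate pair, 38.4 and 32.3 in the ventral tongue pair and 16.2 and 13.2 in the dorsal tongue pair. It was the only one of the 8 with its highest site mean in ventral tongue (35.4 ± 4.34 CPM, SD, n = 2), though its buccal pair spanned that range and its palatal pair overlapped it. Melanocytes also use Sox10: their 7 markers summed to 17.6 to 38.3 CPM, with Tyr at 6.26 to 22.7 CPM, Mitf at 9.64 to 22.9, and Mlana, Slc45a2, Pmel, Tyrp1 and Dct each below 3 CPM in every library. What part they had in the Sox10 values was not tested. S100b stood at 4.27 and 73.6 CPM in buccal mucosa, 14.6 and 20.3 in the hard palate pair, 5.50 and 6.92 in the ventral tongue pair and 3.39 and 4.43 in the dorsal tongue pair. With the second buccal library aside, both hard palate samples were above all the rest, and the dorsal tongue and first buccal samples overlapped at the bottom. Adiponectin (Adipoq), a defining adipocyte marker, was at 367 CPM in that buccal library, 1.18 and 11.3 in hard palate and at most 0.711 in the other 5. The part of adipocytes in S100b was not tested.

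Ngfr did not follow the myelin genes. It stood at 29.9 and 5.87 CPM in buccal mucosa, 18.9 and 35.4 in the hard palate pair, 17.5 and 16.4 in the ventral tongue pair and 18.2 and 18.4 in the dorsal tongue pair. The second buccal library, the highest for the other 7 genes, was the lowest for Ngfr, and it was also the library with the lowest keratinocyte markers, whose part in this was not tested. The dorsal tongue samples sat in the middle of the range. Neighbours in the order of site means overlapped except hard palate above dorsal tongue, where the gap did not exceed the sum of the SDs. For the other genes, neighbouring site means were further apart than the sum of their SDs for ventral above dorsal tongue (Mbp, Pmp22, Cnp, Prx, S100b and Ncmap) and for hard palate above ventral tongue (S100b), and for no other neighbours.

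With 2 samples a site, no member passed the test between sites. The edgeR quasi-likelihood test over all 4 sites called 0 of the 8 at an adjusted p under 0.05, against 4.76% of the 18609 genes tested. Their adjusted p ranged from 0.237 (Cnp) to 0.950 (Ngfr). Tested 1 site against the mean of the other 3, 0 of 8 were called for buccal mucosa (background 0.72%), dorsal tongue (0.838%), hard palate (9.76%) or ventral tongue (1.29%). At an unadjusted p under 0.05 the counts were 6, 1, 0 and 0 of 8, and 0 in the test over all 4 sites. Of the 18609 genes, 3604, 1691, 4870 and 2194 reached that unadjusted level in the same order, and 4251 in the test over all 4 sites. DESeq2 called 1 member, Prx, in buccal mucosa (log2 difference 2.14, adjusted p = 0.0499), where it called 1439 of the 18609 genes. It called no member in the other 4 tests.

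The second buccal library set the direction in its own site. In buccal mucosa 7 of 8 were higher, with a median log2 difference of 1.49 against 0.03 over all genes tested. Prx was 4.47-fold higher there (log2 difference 2.16 ± 0.69, SE; edgeR adjusted p = 0.166) and S100b 5.04-fold (2.33 ± 0.77; adjusted p = 0.177). Without buccal mucosa replicate 2, 3 of 8 were higher and 5 lower, with a median of -0.22. Prx then had a log2 difference of -0.27 (edgeR adjusted p = 0.867), S100b of -0.88 (0.392) and Ngfr of 0.50 (0.605), each with its sign turned, as it also was for Pmp22, Sox10 and Ncmap. In dorsal tongue 7 of 8 were lower, with a median of -0.98 against 0.02, and without that buccal library 8 of 8, with a median of -0.66. Cnp there had a log2 difference of -1.07 ± 0.33 (edgeR adjusted p = 0.353) and Ncmap of -1.91 ± 0.84 (adjusted p = 0.577). These medians share samples, since each site is part of the comparison for the others.

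The dorsal tongue pair lay below all 6 other samples for 5 of the 8 genes, Mbp, Pmp22, Cnp, Prx and Ncmap, a count made after the values had been seen. Over all genes tested 9.1% had both dorsal tongue samples below all others. Of 24 tested genes in a list of other myelin and myelinating Schwann cell genes, 13 did so, among them Mag (1.18 and 1.38 CPM against 2.20 or more). One gene of that list passed the edgeR test in dorsal tongue: Gldn, gliomedin of the node of Ranvier, at 1.55 and 1.62 CPM against 5.13 to 10.96 elsewhere (log2 difference -2.00 ± 0.31; adjusted p = 0.0449). Of 21 tested genes of non-myelinating, immature and lineage Schwann cells, 2 lay below all others in dorsal tongue, Sema3b and Cadm2, and 0 passed the test there. In dorsal tongue the summed keratinocyte markers (29499 and 31890 CPM) and skeletal muscle markers (18980 and 18335 CPM) lay within the range of the other samples. Some of these genes came near the top of the range of the tag, 4240 UMIs per gene and section. Krt13 held 78653 and 78848 UMIs over all sections of the dorsal tongue pair, and Krt4 81860 in ventral tongue replicate 1. Among the muscle markers Atp2a1 held 76433 in ventral tongue replicate 2. Near such a limit a count says little about tissue content, so these sums leave it undecided. Of other tissues, 3 of 10 smooth muscle and pericyte genes (Acta2, Myh11 and Cnn1), 1 of 9 endothelial genes (Vwf) and 1 of 10 fibroblast genes (Pi16) also had both dorsal tongue samples below all others, and 0 of the keratinocyte, skeletal muscle, adipocyte, salivary gland, melanocyte and axon genes did. Their summed levels in dorsal tongue overlapped those elsewhere. They were 1440 and 1397 CPM for smooth muscle (357 to 4777 elsewhere), 205 and 224 for endothelium (153 to 601) and 4512 and 4619 for fibroblasts (3711 to 7641). Most of the smooth muscle sum in dorsal tongue was Des, also a skeletal muscle marker, at 955 and 1029 CPM. Des was at 25.7 and 10.96 CPM in the hard palate pair and at 1239 to 2899 in buccal mucosa and ventral tongue. The overlap of these sums thus does not describe smooth muscle alone. What part these tissues had in the dorsal tongue values was not tested. Stmn2, a neuronal cytoskeleton regulator and the highest of the axon and neuron list, was at 26.4 and 15.9 CPM there against 18.1 to 50.7 elsewhere, so that the ranges overlapped.

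The site results turned on the 2 buccal libraries. Without buccal mucosa replicate 1, the lone buccal sample was assumed to vary like the other sites, so only effect sizes are given. In buccal mucosa Prx then had a log2 difference of 2.96 and Ngfr of -1.88. For Pmp22, Cnp, Prx, S100b and Ncmap the differences in dorsal tongue ran from -1.02 (Pmp22) to -2.16 (Ncmap). S100b was at -1.41 in ventral tongue and Ngfr at 0.92 in hard palate. Without buccal mucosa replicate 2, S100b had a log2 difference of 1.59 and Ncmap of 1.24 in hard palate. Fitted on the other 3 sites alone, S100b differed between sites (edgeR adjusted p = 0.0206), where 2958 of 18419 genes were called.

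**Figure D2:**
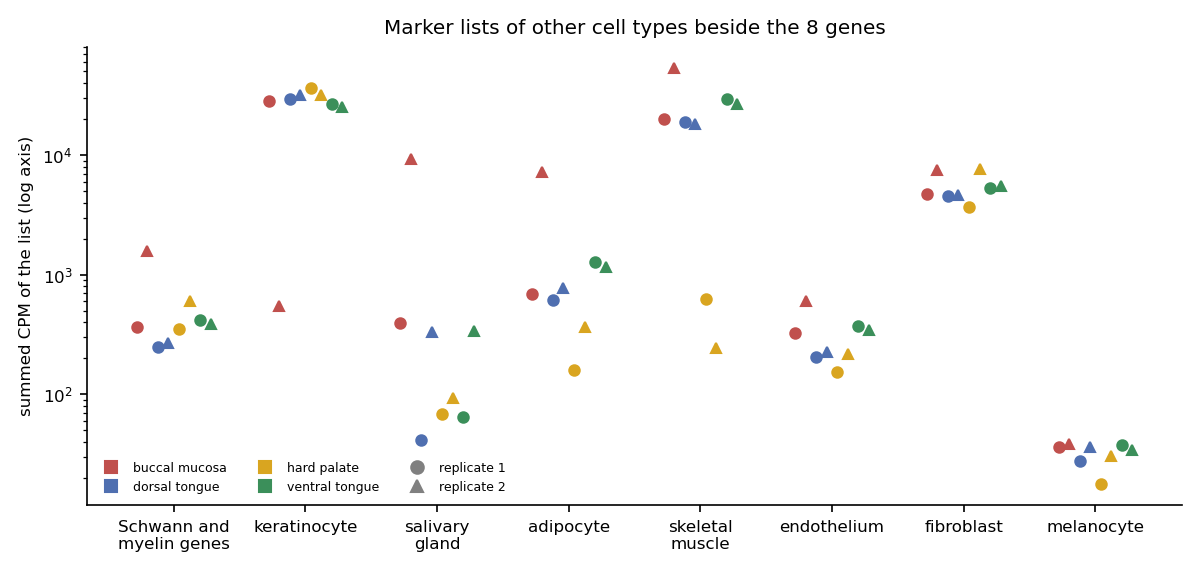
Summed level of the 8 genes and of 7 marker lists in each library (CPM, log axis); circles are replicate 1, triangles replicate 2. The second buccal library is low in keratinocyte markers (541 CPM) and high in salivary gland, adipocyte and skeletal muscle markers and in the 8 genes (1583 CPM), and the hard palate pair is low in skeletal muscle markers (242 and 622 CPM).

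Through the depth of the blocks, 6 of the 8 genes were higher in sections 11 to 20 than in sections 1 to 10, and none was lower. The edgeR test used the sums over the first and the last 10 sections with the sample as a block, and it called 15.7% of 17905 genes higher in sections 11 to 20 and 11.9% lower (2815 and 2123 genes; 2370 and 2653 with the size factors of DESeq2). The median log2 difference of the 8 was 0.59, against 0.03 over all genes tested. Keratinocyte markers marked the direction of the numbering: 8 of 16 fell towards sections 11 to 20, and 0 rose.

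Cnp had the smallest p of the 8. In sections 1 to 10 and then 11 to 20 it stood at 33.6 and 50.5 CPM in buccal mucosa replicate 1, 70.6 and 80.1 in replicate 2, 15.7 and 20.2 in dorsal tongue replicate 1, 16.5 and 25.3 in replicate 2, 30.1 and 49.0 in hard palate replicate 1, 31.8 and 72.8 in replicate 2, 35.4 and 55.2 in ventral tongue replicate 1, and 32.6 and 44.4 in replicate 2. All 8 samples were higher in the later sections, with a log2 difference of 0.57 ± 0.09 (edgeR adjusted p = 0.000634). Pmp22 rose in 8 of 8 samples, from 87.1 to 656 CPM in sections 1 to 10 to 117 to 758 in sections 11 to 20, a log2 difference of 0.70 ± 0.13 (edgeR adjusted p = 0.00255). Prx had the largest difference, 0.90 ± 0.17 (edgeR adjusted p = 0.00226). It rose in 7 of 8 samples, for example from 9.81 to 38.0 CPM in hard palate replicate 2, and was level in the second buccal library, at 90.5 and 87.2.

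Ncmap and Sox10 also were higher in the later sections in all 8 samples. Ncmap had a log2 difference of 0.68 ± 0.17 (edgeR adjusted p = 0.0124) and ran from 3.09 to 8.55 CPM in the first buccal library and from 8.05 to 26.9 in the second palatal one. Sox10 had a difference of 0.61 ± 0.15 (edgeR adjusted p = 0.0120) and was steepest in those same libraries, at 11.4 and 31.3 CPM and at 20.5 and 51.6. So 4 of the 8 genes rose in every sample, Pmp22, Cnp, Sox10 and Ncmap, where 9.28% of the genes tested did. S100b rose in 7 of 8 samples, with a difference of 0.38 ± 0.11 (edgeR adjusted p = 0.0243), and was level in the second buccal library at 75.9 and 71.8 CPM. Mbp was higher in 7 of 8 samples but did not pass (0.27 ± 0.12; edgeR adjusted p = 0.101). Its largest step was in hard palate replicate 2, from 111 to 263 CPM, and its only decrease in dorsal tongue replicate 1, from 85.1 to 76.1.

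Ngfr differed in sign from the other 7. It stood at 32.7 and 25.2 CPM in sections 1 to 10 and 11 to 20 of buccal mucosa replicate 1, 6.74 and 5.21 in replicate 2, 19.7 and 17.1 in dorsal tongue replicate 1, 18.9 and 18.003 in replicate 2, 19.996 and 15.9 in ventral tongue replicate 1, and 19.02 and 13.6 in replicate 2. In hard palate it stood at 18.3 and 19.7 CPM in replicate 1 and 30.3 and 39.2 in replicate 2. Both palatal samples were thus higher in the later sections and the 6 others lower. The overall difference was -0.19 ± 0.08 (edgeR adjusted p = 0.102), and the test of a difference between sites gave an adjusted p of 0.619. Without hard palate replicate 2, Ngfr passed as lower in sections 11 to 20 (-0.35, adjusted p = 0.00830).

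**Figure D3:**
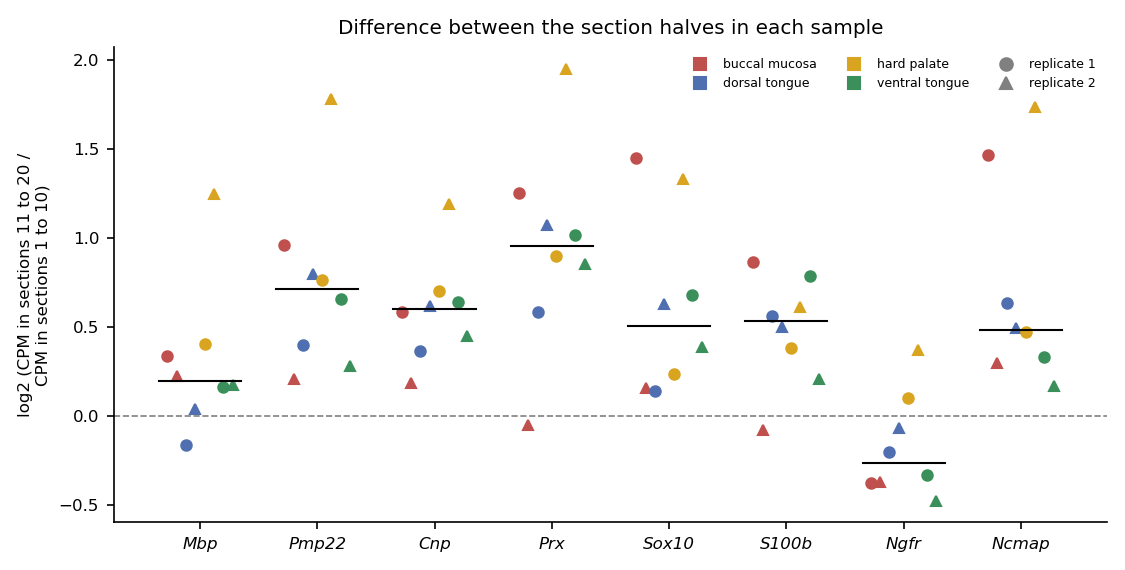
Log2 ratio of the level in sections 11 to 20 to that in sections 1 to 10, per gene and sample; colours are sites, circles replicate 1, triangles replicate 2, bars the median of 8 samples, and the dashed line no difference. All 8 samples are above the line for Pmp22, Cnp, Sox10 and Ncmap, 7 for Mbp, Prx and S100b, and 2 for Ngfr, both from hard palate.

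No member passed the test of a difference between sites in the step with depth: the edgeR interaction test called 0 of 8, against 0.408% of genes, with adjusted p from 0.345 (Mbp) to 0.956 (S100b). At an unadjusted p under 0.05 the count was also 0, beside 2699 of the 17905 genes. With DESeq2 it was 0 as well, beside 429 of 17905. These counts do not show that the slopes were alike. Leaving out 1 library at a time, 5 to 7 of the 8 passed the depth test. Over all genes the calls, higher or lower, ran from 3420 of 17860 (without dorsal tongue replicate 2) to 5335 of 17420 (without buccal mucosa replicate 2). Pmp22, Cnp, Prx, Sox10 and Ncmap passed in all 8 such fits. S100b lost its call without buccal mucosa replicate 1 (adjusted p = 0.0899), dorsal tongue replicate 2 (0.0524), hard palate replicate 2 (0.0778) or ventral tongue replicate 1 (0.0545), and Mbp gained one without dorsal tongue replicate 1 (0.0485).

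Most of the called genes in the wider glial lists were also higher in the later sections. Over all genes tested 15.7% rose towards sections 11 to 20 and 11.9% fell. Of 24 other myelin genes tested, 11 rose and 2 fell, with a median log2 difference of 0.49. Among those that rose were the phosphatidate phosphatase gene Lpin1 (1.07 ± 0.16; edgeR adjusted p = 0.000553), the glial connexin gene Gjc3 (1.43 ± 0.22; 0.000725) and Drp2 (1.00 ± 0.16; 0.00102), whose product binds periaxin. The 2 that fell were Cadm4 (-0.46 ± 0.13) and Cd9 (-0.23 ± 0.07), an adhesion molecule and a tetraspanin that epithelia also carry. Of 20 tested genes of non-myelinating, immature and lineage Schwann cells, 7 rose and 2 fell, the endothelin receptor gene Ednrb by 0.69 ± 0.11 among the former and the neuregulin receptor gene Erbb3 (-0.40 ± 0.07) among the latter. Of 6 tested axon and neuron genes 3 rose, Uchl1 (0.61 ± 0.13), Stmn2 (0.49 ± 0.14) and Th (1.03 ± 0.31). Th was near the floor outside 1 library, with 157 UMIs in buccal mucosa replicate 1 and 2 to 24 in each of the others. Nefl, Nefm, Nefh and Prph, the neuronal filament genes, were below 1 CPM in every library.

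Markers of other tissues rose over the same sections: 9 of 9 tested endothelial genes, 8 of 10 of smooth muscle and pericytes, 10 of 16 of skeletal muscle, 5 of 10 of fibroblasts and 5 of 12 of adipocytes, with none falling in these lists. Des is in both muscle lists. Of the 14 salivary gland markers 8 fell and 0 rose. Beside these counts, 15.7% of all genes tested rose and 11.9% fell. Skeletal muscle markers were lowest in hard palate (242 and 622 CPM). The log2 differences there were 0.76 and 1.78 for Pmp22 and 0.90 and 1.95 for Prx. The part of tissue composition, muscle or other, in the members' depth profile was not tested, in hard palate or elsewhere.

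Along the single sections the members other than Ngfr tended to rise, more in some samples than in others. Within a sample, over sections with at least 100000 UMIs, the median Spearman correlation with section number over the 8 samples was 0.83 for Pmp22, 0.75 for Cnp, 0.66 for Prx, 0.61 for Sox10, 0.45 for S100b, 0.41 for Ncmap and 0.40 for Mbp, and -0.28 for Ngfr. It was positive in all 8 samples for Pmp22, Cnp, Prx, S100b and Ncmap, in 7 for Sox10, in 6 for Mbp and in 3 for Ngfr. Sections of a sample share its block and its order, so these values are a description. In hard palate replicate 2 Pmp22 rose from 58.2 CPM in section 1 to 411 in section 18, and Prx from 4.90 in section 3 to 60.9 in section 20. In buccal mucosa replicate 2 Pmp22 stayed between 500 CPM (section 7) and 861 (section 19). Ngfr had its highest section among the first 3 in 4 samples: section 1 in dorsal tongue replicate 1 (27.3 CPM) and ventral tongue replicate 1 (32.3), and section 3 in dorsal tongue replicate 2 (28.6) and ventral tongue replicate 2 (29.4). These are the 4 tongue samples, while both palatal and both buccal samples had it at section 6 or later.

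**Figure D4:**
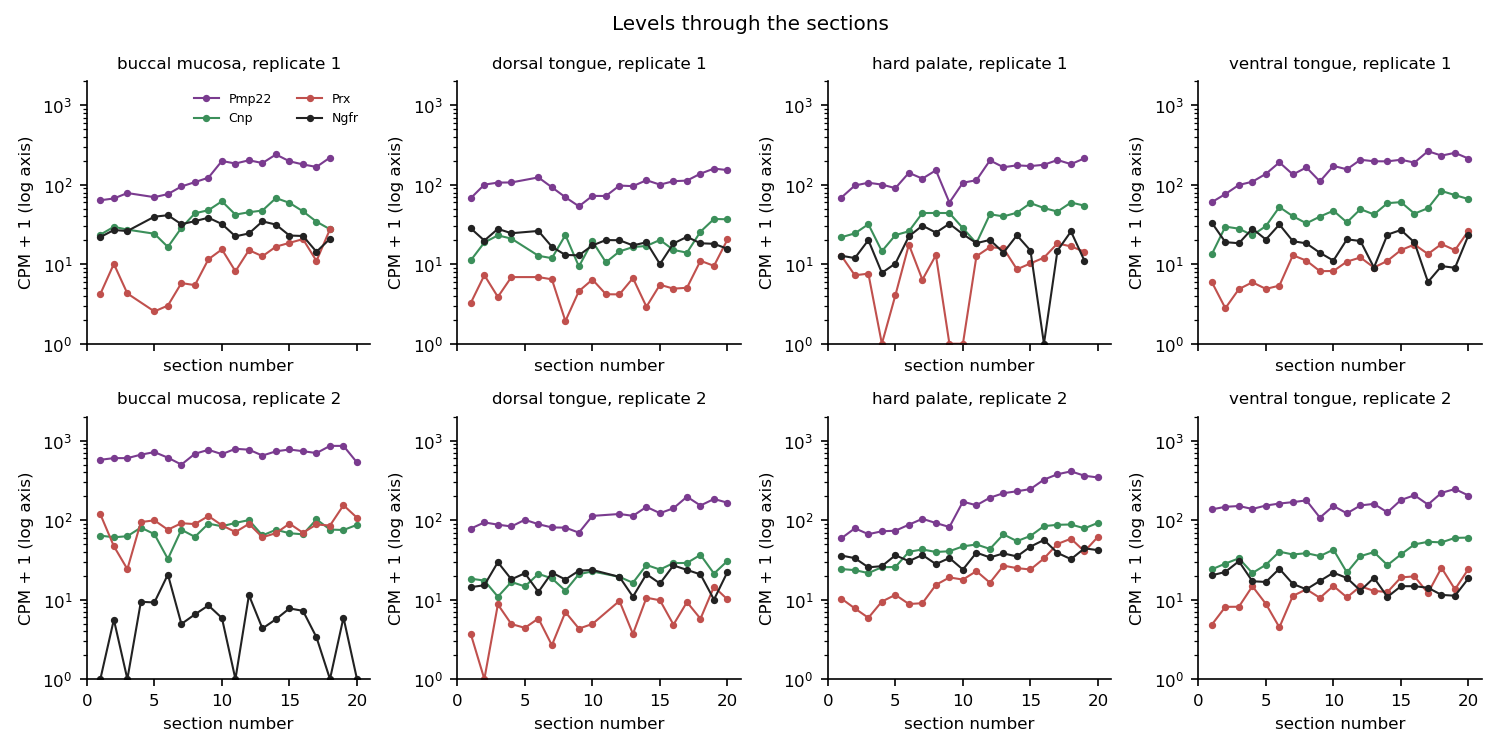
Level of Pmp22, Cnp, Prx and Ngfr (CPM plus 1, log axis) by section number in each of the 8 samples, for sections with at least 100000 UMIs. Pmp22 and Cnp rise along the block in all samples, most in hard palate replicate 2 (Pmp22 58.2 to 411 CPM), and Ngfr is highest within the first 3 sections in the 4 tongue samples.

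Against the marker lists, section by section, Pmp22 ran with the other myelin genes (median Spearman 0.75), fibroblast (0.80), smooth muscle and pericyte (0.79), endothelial (0.76) and skeletal muscle markers (0.67), and opposite to keratinocyte markers (-0.69). Prx ran with the other myelin genes (0.68), and also with endothelial (0.65) and smooth muscle (0.64) markers. Ngfr had no median above 0.16. That value was against the genes of non-myelinating, immature and lineage Schwann cells, and was positive in 7 of 8 samples. Against keratinocyte markers its median was 0.01, with samples from -0.48 to 0.50, and against skeletal muscle markers -0.38. All of these correlations share the section order and the section's depth in UMIs, with which the members' own median correlations were 0.05 (S100b) to 0.53 (Pmp22).

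Between members, the closest profile was that of Pmp22 and Cnp, with a mean within-sample Pearson correlation of 0.71 that was positive in 8 of 8 samples. Pmp22 with Prx followed at 0.65 and Pmp22 with Sox10 at 0.56. Every pair without Ngfr had a positive mean, down to 0.23 for S100b and Ncmap. The 7 pairs with Ngfr lay between -0.17 (S100b) and 0.13 (Mbp). Ngfr counts were small in single sections of the second buccal library, 46 UMIs in all its 20 sections, and a weak correlation there carries little.

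**Figure D5:**
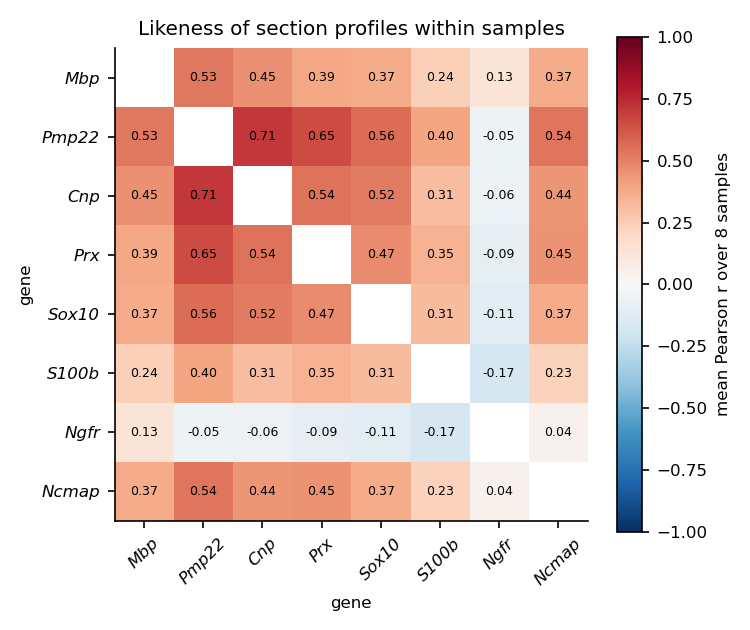
Mean over 8 samples of the within-sample Pearson correlation of log2(CPM + 10) between the section profiles of each pair of genes, over sections with at least 100000 UMIs. Pmp22 and Cnp are the closest pair (0.71), and the row of Ngfr holds values from -0.17 to 0.13.

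Among genes with a mean of at least 10 UMIs per section, those with profiles most like the members were compared by the mean r over 8 samples, in sections of at least 100000 UMIs. The 3 nearest to Pmp22 included Myh11 (0.77) and Sparcl1 (0.76), those to Cnp Anxa6 (0.71) and Pmp22 (0.71), and those to Prx Pdlim7 (0.66) and Anxa6 (0.65). Those to Mbp included Pmp22 (0.53) and Mcpt4 (0.48), and those to Ncmap Myl9 (0.56) and Sema3g (0.56). When all 20 sections were used, the first for Mbp, Cnp and Ncmap were Tsc22d1 (0.66), Clec3b (0.71) and Steap3 (0.57), and the 3 nearest to Pmp22 included Serpinb6a (0.75) and Epas1 (0.75). For Ngfr the nearest were Apoe (0.47), Tmem176b (0.47) and Cdca7 (0.46), and with all 20 sections Tanc1 (0.58), Hjurp (0.57) and Zmynd8 (0.56). For Sox10 they were Eri3, Tesk1 and Col4a2, all at 0.60, and with all 20 sections Rasip1, Mtfr1l and Pdha1. For S100b the symbol Pakap came first under both (0.49 and 0.52), and it stands for 2 entries in the tables.

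Ngfr binds neurotrophins together with the Trk receptors, and 11 genes of such partners were tested. In hard palate 3 of the 11 passed (background 9.76%), at each other site 0, and over all 4 sites 1, Bdnf. Both palatal samples were above all others for 4 of the 11 and for 0 of the 8 members, where 22.6% of all genes tested were. Bdnf, a neurotrophin, stood at 78.3 and 75.6 CPM in hard palate and at 3.96 to 18.01 in the 6 other samples, without overlap (log2 difference 2.92 ± 0.44; edgeR adjusted p = 0.0114). Ntrk3, the receptor for neurotrophin-3, stood at 19.8 and 23.9 CPM in hard palate and 2.16 to 11.9 elsewhere (1.69 ± 0.33; adjusted p = 0.02496). Ntrk2, the receptor for Bdnf, was lower there, at 36.8 and 35.03 CPM against 46.5 to 88.1 (-1.20 ± 0.22; adjusted p = 0.0221). Along the sections 2 of the 11 tested genes of this list fell and 0 rose, beside 11.9% and 15.7% of all genes tested. The 2 were Erbb2 (-0.37 ± 0.08; edgeR adjusted p = 0.00715) and Bdnf (-0.51 ± 0.16; adjusted p = 0.0323). In hard palate 3 of 21 lineage Schwann cell genes also passed, beside 9.76% of all genes, Gfap (1.83 ± 0.40; adjusted p = 0.0348) and Cadm2 (1.21 ± 0.30; 0.0498) higher and Ednrb (-2.28 ± 0.42; 0.0213) lower, with Gfap at most 1.63 CPM.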

How the data were processed

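Per the labels' protocols, the RNA of each section was isolated by kit and went into CEL-seq2 libraries, read on a NextSeq500. The submitters' processing notes list Trim Galore 0.6.10 and STAR 2.7.9a, with build GRCm38; for the counting program, the sources used here give none. The authors deposited 3 tables per sample by gene and section: whole-number UMI counts, read counts, and estimated counts of transcripts with decimals. UMI counts were used here; the other tables, estimated counts rounded, served as alternatives. The 413 entries naming several genes stayed in library sizes and were never named. Counts were summed over a sample or over sections 1 to 10 and 11 to 20, filtered (filterByExpr), TMM-scaled and tested in edgeR 4.0.16 (quasi-likelihood F test, Benjamini-Hochberg adjustment over all genes tested, limma 3.58.1, R 4.3.3); DESeq2 1.42.0 was an alternative. The SE given with an edgeR log2 difference was worked back from the test, as the absolute difference divided by the square root of its F value. The fits were tested on simulated data. Pearson correlations between section profiles used log2(CPM + 10). Spearman correlations used the members' CPM against section number, section UMIs or the mean log2 level of a list. All are descriptions.

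Members, lists and tests were chosen with earlier results of these data known. All 8 members were named; of each list, counts, at most 4 genes with the smallest adjusted p, and defining markers; counts of samples that did not overlap and the genes in them were chosen after the values were seen, as were genes named for counts of 5 or fewer. For likeness, up to 3 genes per member were named among those with a mean of at least 10 UMIs per section. Some listed genes are not reported here. The alternatives were DESeq2's size factors (RLE), no filter, DESeq2, reads, transcripts, a replicate block, sections 1 to 7 against 14 to 20 and each sample left out; equal weight to sections and leaving out buccal mucosa were added after seeing the data.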

Additional observations from a re-analysis of the deposited data

Results flagged for a closer look

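None of the 8 members met a rule for flagging: with 2 samples a site no sample can be tested as standing apart, and edgeR's test of a difference between sites in the step from sections 1 to 10 to sections 11 to 20 called 0 of them. Of the listed marker genes, 5 passed that test, where 0.408% of all genes did. Mal, a proteolipid of myelin and of epithelia, gave an adjusted p of 0.0158: it was higher in sections 11 to 20 in both hard palate samples (40.4 to 91.5 and 27.9 to 59.7 CPM) and lower in the 6 others. The keratin gene Krt1 gave 0.0024, falling from 480 to 15.3 CPM in buccal mucosa replicate 1 and from 384 to 317 in hard palate replicate 1. Adipoq gave 0.0419, the endothelial gene Vwf 0.0438 and the simple keratin gene Krt18 0.0289.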

How the results depend on the processing

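Of 840 values of the members under other settings, 749 kept their direction and side of the threshold, 44 gained a call, 11 lost one and 36 changed sign, all of the latter in comparisons between sites and none of them called under either setting. In hard palate Prx, at -0.01, turned to 0.0199 with DESeq2's size factors, 0.0582 with no filter, 0.0178 with DESeq2, 0.0398 with transcripts and 0.218 with equal weight to sections, and Mbp, also below 0, to 0.0897 with equal weight. Pmp22 in ventral tongue turned to 0.0127 with the replicate block. Leaving out 1 sample, the members that changed sign ranged in buccal mucosa from -0.17 to 2.15 (Pmp22), -0.27 to 2.96 (Prx), -0.42 to 0.89 (Sox10), -0.88 to 3.20 (S100b), -1.88 to 0.50 (Ngfr) and -0.44 to 2.78 (Ncmap). In dorsal tongue Ngfr ranged from -0.14 to 0.67. In hard palate the ranges were -0.68 to 0.29 (Mbp), -0.77 to 0.018 (Pmp22), -0.18 to 0.35 (Cnp), -0.76 to 0.80 (Prx), -1.05 to 0.33 (Sox10), -0.17 to 0.92 (Ngfr) and -0.14 to 1.24 (Ncmap). In ventral tongue they were -0.71 to 0.083 (Mbp), -0.43 to 0.42 (Pmp22), -0.81 to 0.35 (Prx), -1.41 to 0.021 (S100b), -0.42 to 0.30 (Ngfr) and -0.85 to 0.31 (Ncmap). With no filter 5 of 8 passed the test over the 4 sites, where 4522 of 33545 genes did. That setting also called Mbp, Pmp22, Prx, S100b and Ncmap higher in buccal mucosa, where 2584 genes were called. In dorsal tongue it called Prx, S100b and Ncmap lower, among 1282 genes called. Mbp passed with it for depth (0.25, edgeR adjusted p = 0.0403), where 5413 genes did. It also passed for the difference between sites in depth (0.0231), where 1958 genes did. With sections 1 to 7 against 14 to 20, S100b lost its call (0.36, adjusted p = 0.0554) and Ngfr passed as lower (-0.36, 0.0303), as it did with DESeq2's size factors (-0.23, 0.0472).

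Counts over all genes moved most. The test over 4 sites called 886 genes, 4522 with no filter, 3284 with DESeq2, 2958 without buccal mucosa and 0 to 5684 leaving out 1 sample. The buccal comparison called 134, then 2584 with no filter, 1439 with DESeq2 and 0 to 5093 leaving out 1 sample. Dorsal tongue gave 156, 1282, 539 and 1 to 1801, hard palate 1817, 3728, 3109 and 318 to 5526, and ventral tongue 240, 1321, 855 and 0 to 1320, in the same order, and 0 in ventral tongue with equal weight to sections (limma; 2034 at an unadjusted p under 0.05). Where edgeR called 0 without a sample, 1135 to 3469 genes had an unadjusted p under 0.05. Depth gave 4938, and 3420 to 5335 leaving out 1 sample. Its difference between sites gave 73 genes, 128 with DESeq2's size factors, 1958 with no filter, 429 with DESeq2, 31 with reads, 38 with sections 1 to 7 against 14 to 20 and 10 to 988 leaving out 1 sample. The cause of these shifts was not tested. Equal weight moved the median log2 difference of all genes to 0.18 in hard palate and -0.15 in dorsal tongue.

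Replicate numbers were not taken to pair the samples: the labels do not say whether same-numbered samples share an animal, and their deviations correlated from -0.27 to 0.53 between sites, the highest between dorsal and ventral tongue. With the replicate block the test over 4 sites called 362 genes, buccal mucosa 2, dorsal tongue 83, ventral tongue 48 and depth 361. In depth the block replaced the sample, and none of the 8 members passed (Cnp 0.56, adjusted p = 0.0741; 3037 genes at an unadjusted p under 0.05).

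The site tests rest on 2 samples a site, and the SEs of the members' log2 differences between sites ran from 0.30 to 0.95. Ncmap, S100b and Prx had 62 to 694 UMIs a sample, so single sections hold few molecules of them.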
